A study of Mus musculus with 24 samples.

Results

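The genes described here are 8 genes that are highly expressed in brown adipocytes: Ucp1, Cox8b, Cox7a1, Cidea, Clstn3, Kcnk3, Otop1 and Slc36a2. They were read from the kidney count table, which holds 56941 genes. The list was drawn up from earlier results of the same kidneys, in which these genes were lower after myocardial infarction (MI). Levels and differences between the groups are therefore given as a description, without a test of the 8 genes. Kidneys came from male wildtype C57BL/6J mice that were 8 to 11 weeks old at surgery, in which MI had been induced by tying off the LAD, a coronary artery of the left ventricle, for good. There were 8 sham-operated mice, whose kidneys were taken 5d after surgery without ligation, 8 mice whose kidneys were taken 5d post-MI and 6 mice examined 28d post-MI. The sham group served as control for both times, so that at 28d post-MI the effect of LAD ligation and that of the longer time after surgery cannot be told apart.

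Brown adipocytes burn fat to make heat. Noradrenaline acts on beta-adrenergic receptors, lipid is broken down to fatty acids, and uncoupling protein 1 lets protons pass the inner mitochondrial membrane without making ATP. Fat around the kidney hilum and the adrenal gland of the mouse contains brown adipocytes.

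The libraries of kidney RNA were made by MACE (Massive Analysis of cDNA Ends), which counts molecules at their 3′ ends by unique molecular identifiers. The counts of a kidney summed to between 2280618 and 3786275 in sham mice, from 2351162 to 3382058 at 5d post-MI and from 2522894 to 3269306 at 28d post-MI. Levels are given as CPM, counts scaled to the TMM-normalised library size, and are compared between kidneys and not between genes. The summed level of 10 kidney epithelium markers ran from 50500 to 59500 CPM in sham kidneys and from 35800 to 66700 CPM at 5d post-MI. At 28d post-MI it ran from 61900 to 70000 CPM, so that every kidney of this group was above every sham kidney. Most of the sum was Kap, with mean levels of 48600, 48700 and 59000 CPM in the 3 groups. The summed level of 13 adrenal genes was between 5.69 and 10.5 CPM in 19 kidneys but 1160 CPM in sham replicate 2, 913 CPM in sham replicate 6 and 100 CPM in replicate 5 at 5d post-MI. The low counts of several genes limit the precision: a count of 0 in a kidney allows up to 3 counts, and this covers counting error only.

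Promoter sequence was at hand for 5 of the 8 genes, namely Ucp1, Cox8b, Cox7a1, Clstn3 and Otop1, and not for Kcnk3, Slc36a2 and Cidea. The 250 bases upstream of the RefSeq start (GRCm38.p6) were searched on both strands for TGACG, one part of the cAMP response element, for the nuclear receptor half-site AGGTCA and for the CCAAT box. Ucp1 and Cox8b, which were among the lower genes after MI, are shown beside Cox8a, the ubiquitous paralog of Cox8b, which differed little between the groups. Each is written 5′ to 3′ along the strand of its gene, with matches in capitals. The windows are chr8:83290098-83290347 on the plus strand for Ucp1, chr7:140900447-140900696 on the minus strand for Cox8b and chr19:7217617-7217866 on the minus strand for Cox8a.
Ucp1: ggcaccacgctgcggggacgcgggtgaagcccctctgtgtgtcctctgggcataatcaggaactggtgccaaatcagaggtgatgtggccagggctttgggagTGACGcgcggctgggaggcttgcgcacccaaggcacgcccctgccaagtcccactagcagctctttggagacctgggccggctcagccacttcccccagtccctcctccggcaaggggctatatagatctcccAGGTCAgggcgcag
Cox8b: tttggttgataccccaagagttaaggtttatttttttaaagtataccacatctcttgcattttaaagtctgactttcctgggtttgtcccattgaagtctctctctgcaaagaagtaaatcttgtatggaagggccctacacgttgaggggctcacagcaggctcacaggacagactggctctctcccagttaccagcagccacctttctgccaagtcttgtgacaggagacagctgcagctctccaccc
Cox8a: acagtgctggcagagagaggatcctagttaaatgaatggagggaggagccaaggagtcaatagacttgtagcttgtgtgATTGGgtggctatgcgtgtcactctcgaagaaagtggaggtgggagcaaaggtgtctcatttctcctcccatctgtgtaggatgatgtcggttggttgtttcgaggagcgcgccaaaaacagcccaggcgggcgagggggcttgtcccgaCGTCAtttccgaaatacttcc
The window of Ucp1 held TGACG and AGGTCA, each on the strand of the gene. Cox8b held none of these motifs, while Cox8a held TGACG and CCAAT, both on the opposite strand. Cox7a1 held CCAAT in 2 places, as did the upstream start of Clstn3, whereas the window of Otop1 and that of a second RefSeq start of Clstn3, which was not matched here to a transcript, held none. Such matches are common: TGACG was found in 17.8% of 32851 promoter windows of this length, AGGTCA in 14% and CCAAT in 33.8%.

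All 8 genes had a lower mean level at 5d post-MI than in sham kidneys and a still lower one at 28d post-MI. A log2 fold change below 0 was found for 49.9% of all tested genes at 5d post-MI, for 50.4% at 28d post-MI and for 51.4% between the times. Relative to sham, the median log2 fold change of the 8 genes was −0.59 for 5d and −2.09 for 28d post-MI, while the medians of all 12780 tested genes were 0.00018 and −0.0012. Between 28d and 5d post-MI the median of the 8 genes was −1.41, against −0.0046 for all genes. These contrasts share groups, and the values stand side by side without a comparison of them. For 28d post-MI, Kcnk3 had the lowest log2 fold change of the 8 genes, and Cox7a1, at −0.33, the one nearest to 0. Neighbouring groups overlapped for each of the 8 genes, as did sham and 28d post-MI, and a full separation with lower levels was seen for 0.0156%, 0.0704% and 0.0939% of all tested genes in these contrasts.

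**Figure D1:**
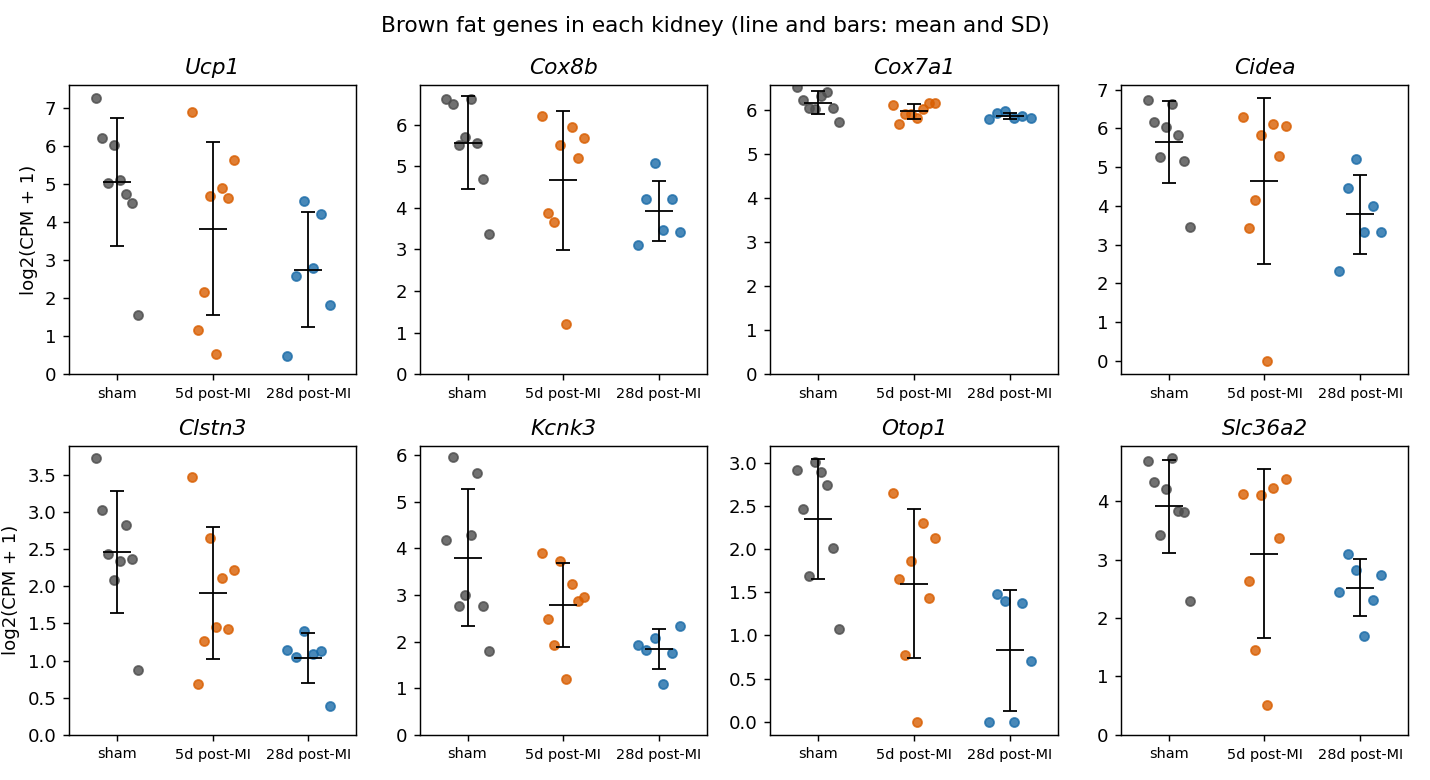
Level of each of the 8 genes, as log2(CPM + 1), in single kidneys (points) of the sham, 5d post-MI and 28d post-MI groups, with the mean (line) and SD (bars) of the transformed values. For each gene all 6 kidneys at 28d post-MI lie below the sham mean, and at 5d post-MI 1 or 2 of 8 kidneys lie below every sham kidney while the others overlap the sham range.

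In the quasi-likelihood test of edgeR over all genes, 0 of the 8 genes had an adjusted p-value under 0.05 at 5d post-MI, at 28d post-MI or between both times. Of all tested genes, 0.0704%, 0.0235% and 0.415% were called in these contrasts. An unadjusted p-value under 0.05 with a lower level was found for 2 of the 8 genes at 5d post-MI, all 8 at 28d post-MI and 3 between the times, against 3.97%, 4.23% and 4.01% of all genes. DESeq2 called 0, 3 and 0 of them, against 0.274%, 0.329% and 0.751% of all genes. The 3 genes were Clstn3, Kcnk3 and Otop1. A log2 fold change below −1 was found for 1 of the 8 genes at 5d post-MI and for 7 at 28d post-MI and between the times, against 0.243%, 0.36% and 0.164% of all genes. Nothing is read from these counts, since the genes were chosen by the same contrasts.

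All 8 genes passed the count filter, but not all in every group. The cutoff corresponded to 3.46 CPM. Clstn3 reached it in 6 of 8 sham kidneys, 3 of 8 kidneys of the 5d group and 0 of 6 of the 28d group. Otop1 did so in 5, 2 and 0 kidneys, and Kcnk3 in 7, 6 and 1. These 3 genes thus entered the test through the groups in which they were higher.

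Ucp1 encodes uncoupling protein 1, the proton carrier that defines brown and beige adipocytes (ENSMUSG00000031710, chromosome 8, 83290352 to 83298452). Gene positions are those of GENCODE on GRCm38, and the build on which the authors counted is given as mm39 in the labels and as mm10 in the study's methods. In sham replicates 1 to 8 its level was 153, 72.9, 31.8, 64.7, 33.5, 25.8, 21.8 and 1.94 CPM. At 5d post-MI, replicates 1, 2, 3, 5, 6, 7, 8 and 9 had 119, 1.22, 3.5, 24.7, 0.433, 28.9, 23.7 and 48.3 CPM. At 28d post-MI, replicates 1, 2, 3, 4, 6 and 7 had 0.402, 5.01, 22.4, 5.98, 17.5 and 2.51 CPM. Within the sham group alone the highest kidney was thus far above the lowest, 79.0-fold, and sham replicate 8 was as low as the low kidneys after MI. Mean levels were 50.7 ± 47.4 CPM (SD over 8 kidneys) in sham kidneys, 31.2 ± 39.1 CPM (SD over 8 kidneys) at 5d post-MI and 8.96 ± 8.85 CPM (SD over 6 kidneys) at 28d post-MI. For Ucp1 the log2 fold change relative to sham was −0.70 (standard error 0.69) at 5d post-MI and −2.56 (standard error 0.96) at 28d post-MI, a 5.91-fold lower level. At 28d post-MI, 6 of 8 sham kidneys were above every kidney of the MI group and all 6 MI kidneys were below the sham mean, but only 1 of them was below every sham kidney. At 5d post-MI, 2 of 8 kidneys were below every sham kidney.

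Cox8b and Cox7a1 encode isoforms of cytochrome c oxidase subunits that are found in heart, skeletal muscle and brown fat. For Cox8b (ENSMUSG00000025488, chromosome 7, 140898945 to 140900446), the lowest, median and highest sham kidney had 9.43, 48.6 and 97.5 CPM. The kidneys at 5d post-MI had 1.3, 40.5 and 72.6 CPM, and those at 28d post-MI 7.64, 13.8 and 32.9 CPM. As for Ucp1, the lowest sham kidney was replicate 8 and the lowest kidney of the 5d group replicate 6. The log2 fold change of Cox8b was −0.62 (standard error 0.47) at 5d post-MI and −1.86 (standard error 0.60) at 28d post-MI, when 6 of 8 sham kidneys exceeded every MI kidney.

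Cox7a1 (ENSMUSG00000074218, chromosome 7, 30184144 to 30186078) was the steadiest of the 8 genes. Its level was 72.1 ± 12.7 CPM (SD over 8 kidneys) in sham kidneys, 62.4 ± 7.43 CPM (SD over 8 kidneys) at 5d post-MI and 57.3 ± 3.09 CPM (SD over 6 kidneys) at 28d post-MI. The sham kidneys ran from 52.4 to 91.5 CPM, those at 5d post-MI from 50.3 to 71.1 CPM and those at 28d post-MI from 54.3 to 62.2 CPM. The highest sham kidney was thus 1.75-fold above the lowest, and 7 of 8 sham kidneys exceeded every kidney at 28d post-MI. In replicate 6 of the 5d group, Ucp1 was at 0.433 CPM, Cox8b at 1.3 CPM and Cidea at 0 CPM. Cox7a1 was still at 55.9 CPM in that kidney, and which cells its transcripts came from was not tested. Relative to sham, the log2 fold change of Cox7a1 was −0.21 (standard error 0.09) at 5d post-MI and −0.33 (standard error 0.10) at 28d post-MI.

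Both genes have ubiquitous paralogs that serve the same place in the enzyme, Cox8a and Cox7a2. For Cox8a the log2 fold change was 0.00 at 5d post-MI (standard error 0.04, adjusted p = 0.992 from edgeR), and 28d post-MI it was −0.00 (standard error 0.05, adjusted p = 0.994). Cox7a2 had log2 fold changes of −0.04 (standard error 0.04, adjusted p = 0.876) and −0.09 (standard error 0.04, adjusted p = 0.545). The Cox8b share of the summed CPM of Cox8a and Cox8b had a median of 3.98% (range 0.732% to 7.1%) in sham kidneys, 3.2% (0.0994% to 5.31%) at 5d post-MI and 1.07% (0.689% to 2.48%) at 28d post-MI. For Cox7a1 in the sum with Cox7a2, the medians were 6.82%, 6.4% and 6.03%. The share of Cox8b was thus lower at 28d post-MI by its median, with overlapping ranges, while that of Cox7a1 lay close in all groups.

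Cidea encodes a lipid droplet protein that is abundant in brown and beige adipocytes (ENSMUSG00000024526, chromosome 18). In sham kidneys its lowest, median and highest levels were 9.98, 60.0 and 106 CPM. Kidneys at 5d post-MI had 0, 46.9 and 77.1 CPM and kidneys at 28d post-MI 4.02, 12.1 and 36.2 CPM. The kidney without a count was replicate 6 of the 5d group, and in the 28d group 3 of 6 kidneys lay under the lowest sham kidney. For Cidea the log2 fold change was −0.49 (standard error 0.50) at 5d post-MI and −1.93 (standard error 0.64) at 28d post-MI. The annotation places B430212C06Rik on the opposite strand within Cidea, and because the strand setting of the counting is not given in the sources used here, reads of both cannot be told apart.

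Clstn3 encodes calsyntenin 3, a membrane protein of neurons, and from an inner start a shorter adipocyte protein, calsyntenin 3 beta, that acts at lipid droplets (ENSMUSG00000008153, chromosome 6, 124430759 to 124464794). The annotation lists 7 transcripts, which counts per gene do not separate. Clstn3 was low throughout, with 3 to 43 counts per sham kidney, 2 to 29 at 5d post-MI and 1 to 4 at 28d post-MI. In CPM this gave 5.26 ± 3.36 CPM (SD over 8 kidneys), 3.48 ± 3.08 CPM (SD over 8 kidneys) and 1.09 ± 0.428 CPM (SD over 6 kidneys). Relative to sham, the log2 fold change was −0.56 (standard error 0.45) at 5d post-MI and −2.26 (standard error 0.64) at 28d post-MI. The highest kidney was replicate 1 in the sham group, with 12.2 CPM, and replicate 1 at 5d post-MI, with 10.1 CPM, the same kidneys that led for Ucp1.

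Otop1 encodes otopetrin 1, a proton channel of sour taste cells and the inner ear that is also expressed in brown fat (ENSMUSG00000051596, chromosome 5, 38275972 to 38304217). Counts in sham replicates 1 to 8 were 23, 12, 5, 26, 19, 15, 11 and 4. At 5d post-MI, replicates 1, 2, 3, 5, 6, 7, 8 and 9 had 15, 7, 2, 9, 0, 13, 4 and 11 counts. At 28d post-MI, replicates 1, 2, 3, 4, 6 and 7 had 0, 5, 4, 0, 4 and 2 counts. All kidneys at 28d post-MI were thus near the floor of detection, 2 of them without a count, while 5 of 8 sham kidneys had 12 counts or more. Otop1 reached 4.56 ± 2.22 CPM (SD over 8 kidneys) in sham kidneys, 2.46 ± 1.71 CPM (SD over 8 kidneys) at 5d post-MI and 0.939 ± 0.834 CPM (SD over 6 kidneys) at 28d post-MI. The log2 fold changes were −0.84 (standard error 0.41) and −2.25 (standard error 0.57) relative to sham, and 7 of 8 sham kidneys were above every kidney at 28d post-MI.

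Slc36a2 encodes a proton-coupled amino acid transporter that is a surface marker of brown adipocytes and is also known from the proximal tubule (ENSMUSG00000020264, chromosome 11, 55158470 to 55185077). Its lowest, median and highest sham kidney had 3.88, 15.4 and 25.7 CPM. In the 5d group these were 0.433, 12.7 and 19.9 CPM, in the 28d group 2.24, 5.03 and 7.52 CPM. The kidneys at 5d post-MI split widely, with 5 of 8 above 9 CPM and the rest at 5.18 CPM or less. At 28d post-MI the highest kidney was 3.35-fold above the lowest, at 6 to 21 counts, against 6.63-fold in sham kidneys. The log2 fold change was −0.50 (standard error 0.41) at 5d post-MI and −1.66 (standard error 0.54) at 28d post-MI, when 7 of 8 sham kidneys exceeded every MI kidney.

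Kcnk3 encodes TASK-1, a two-pore potassium channel of brown adipocytes that is also strongly expressed in the adrenal cortex (ENSMUSG00000049265, chromosome 5, 30588170 to 30625271). In sham replicates 1 to 8 its level was 17.0, 61.2, 5.75, 7.01, 18.6, 48.2, 5.79 and 2.5 CPM. Kidneys of the 5d group had between 1.3 and 14 CPM (median 6.53 CPM), those of the 28d group between 1.12 and 4.07 CPM (median 2.66 CPM). Mean levels were 20.8 ± 22, 7.06 ± 4.4 and 2.69 ± 0.984 CPM (SD over 8, 8 and 6 kidneys). The highest values belonged to sham replicates 2 and 6, the same kidneys in which the adrenal genes were high. Kcnk9, the paralog TASK-3, had 18 and 21 counts in these kidneys and 0 counts in the other 6 sham kidneys, and Star, which brings cholesterol into the mitochondria of steroid-making cells, was at 303 and 240 CPM against 1.62 ± 0.548 CPM (SD over 6 kidneys). In the other 6 sham kidneys Kcnk3 reached 9.45 ± 6.67 CPM (SD over 6 kidneys). With all sham kidneys the log2 fold change of Kcnk3 was −1.45 (standard error 0.57) at 5d post-MI and −2.85 (standard error 0.79) at 28d post-MI. Without sham replicates 2 and 6, a choice made after seeing the data, it was −0.37 (standard error 0.44) and −1.77 (standard error 0.57). Replicate 5 at 5d post-MI, with 100 CPM of adrenal genes and 12.3 CPM of Kcnk3, was kept in this fit. Kidneys with adrenal transcripts were thus left out of the sham group only, which limits the value at 5d post-MI. For the other genes that could be fitted without sham replicates 2 and 6, values at 28d post-MI stayed close to those with them, at −2.58 for Ucp1, −1.78 for Cox8b, −1.91 for Cidea, −2.15 for Clstn3, −1.65 for Slc36a2 and −0.28 for Cox7a1. Otop1 did not pass the filter there. The annotation places Gm9899 on the opposite strand within Kcnk3, whose reads cannot be told apart from those of Kcnk3 without strand.

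Between 28d and 5d post-MI, in the fit over all 22 kidneys, log2 fold changes were −1.86 (standard error 1.01) for Ucp1, −1.24 (0.63) for Cox8b, −1.44 (0.66) for Cidea, −1.70 (0.69) for Clstn3, −1.40 (0.91) for Kcnk3, −1.42 (0.64) for Otop1 and −1.16 (0.57) for Slc36a2. Cox7a1 had −0.12 (0.10). All 6 kidneys of the later time lay below the mean of the earlier one for each of the 8 genes, and for Clstn3 and Kcnk3 6 of 8 kidneys at 5d post-MI were above every later kidney. For Cox8b, Cidea and Slc36a2, however, the lowest of all kidneys was replicate 6 of the 5d group, and the ranges of both times overlapped for each gene.

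**Figure D2:**
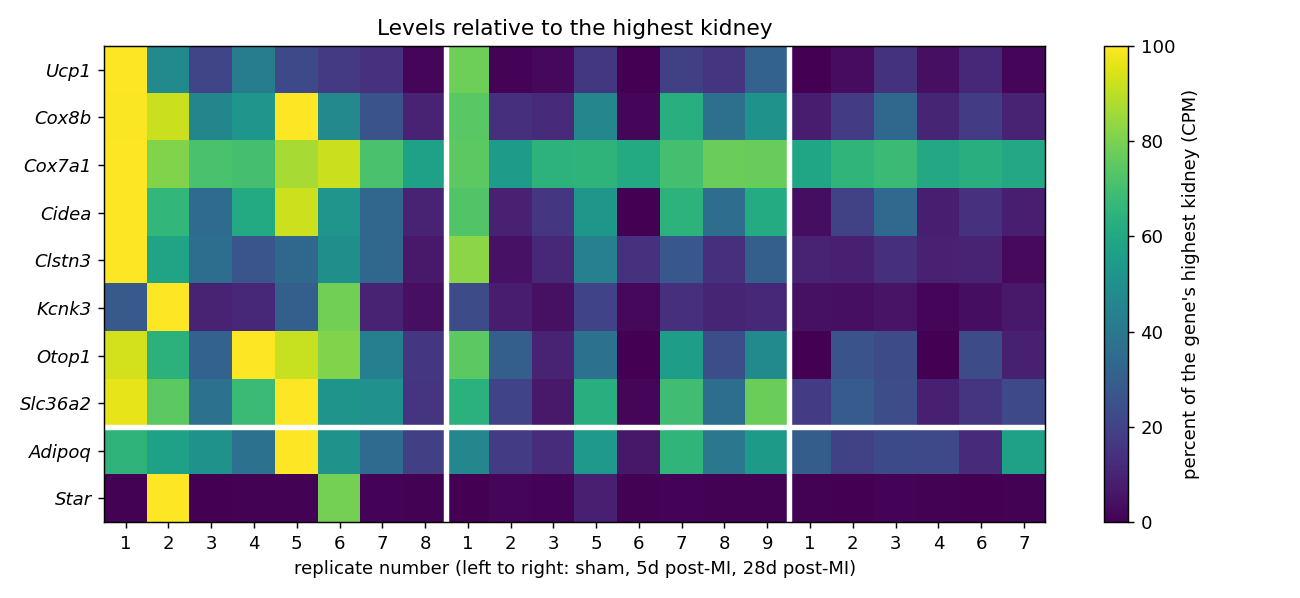
Level of the 8 genes and of Adipoq (adipocytes) and Star (adrenal steroid cells) in each of 22 kidneys, as percent of the CPM of the kidney with the highest level of that gene (colour scale 0 to 100). Sham replicates 1, 2 and 5 are bright in most of the 8 genes, replicate 6 at 5d post-MI is dark in nearly all, and Star is bright only in sham replicates 2 and 6, which also lead for Kcnk3.

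Within groups, the 8 genes tended to be high or low together from kidney to kidney, some pairs less so than others. After removal of the group means, the 28 pairs of genes had Pearson's r between 0.55 and 0.97 over 22 kidneys, with a median of 0.704. These correlations are a description, and the points share libraries, depth and normalisation. Cox8b and Cidea were the closest pair with 0.97, followed by Cox8b and Slc36a2 with 0.915, while Clstn3 and Otop1, both low in counts, had 0.55. In sham kidneys alone, Spearman's rho was 0.976 for Cox8b with Cidea but only 0.214 for Clstn3 with Otop1 and 0.405 for Clstn3 with Slc36a2. Over all 22 kidneys, with the group differences left in, sham replicate 1 was among the 5 highest for all 8 genes and sham replicate 2 for 7. Sham replicate 8 was among the 5 lowest for 6 genes, as were replicate 6 of the 5d group and replicate 7 of the 28d group. Replicate 4 of the 28d group was so for 7 genes and replicate 1 of that group for 5. These ranks follow in part from the choice of the genes, which were picked for lower levels after MI.

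Several adipocyte genes followed the 8 genes within groups. By Pearson's r to the mean of the 8 genes over 22 kidneys, with group means removed, the closest included Apoc1 (0.92), Prkar2b (0.899), Agpat2 (0.888), Thrsp (0.876), Lipe (0.875), Adig (0.873), Ifi27 (0.867), Acacb (0.859) and Nat8l (0.857). Apoc1 encodes an apolipoprotein, Prkar2b a regulatory subunit of protein kinase A, Agpat2 an enzyme of triglyceride synthesis and Lipe the hormone-sensitive lipase. Slc36a2 was closest to Plin1 (0.928), Cox8b to Apoc1 (0.911), Cidea to Nat8l (0.875), Cox7a1 to Agpat2 (0.858), Otop1 to Agmo (0.896), Ucp1 to Gpd1 (0.834), Clstn3 to Arl4a (0.826) and Kcnk3 to C3 (0.819). Apoc1 had a log2 fold change of −1.37 at 28d post-MI (adjusted p = 0.401 from edgeR), Prkar2b one of −1.35 (adjusted p = 0.361) and Agpat2 one of −0.88 (adjusted p = 0.254).

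General adipocyte genes also had log2 fold changes below 0, none of which passed the test. The summed level of 13 adipocyte genes, among them Adipoq, Plin1 and Fabp4, ran from 524 to 2370 CPM in sham kidneys (median 1460), from 240 to 1810 CPM at 5d post-MI (median 1270) and from 501 to 1270 CPM at 28d post-MI (median 694), with 0 of the 13 genes at 0 in every kidney of a group. All 11 tested adipocyte genes had a log2 fold change below 0 at both times, against 49.9% and 50.4% of all tested genes. The medians of the 11 were −0.56 for 5d and −0.89 for 28d post-MI. In edgeR, 0 of 11 had an adjusted p-value under 0.05 at either time. At an unadjusted p-value under 0.05, 3 and 5 of the 11 were lower, against 3.97% and 4.23% of all genes. Lipe came closest, with 49.7 ± 15.6 CPM (SD over 8 kidneys) in sham kidneys and 23.4 ± 2.99 CPM (SD over 6 kidneys) at 28d post-MI (log2 fold change −1.08, standard error 0.29, adjusted p = 0.246 from edgeR), and DESeq2 called it at 28d post-MI. The values of Plin1 and Fabp4 were −1.48 and −1.08 at 28d post-MI (adjusted p = 0.335 and 0.462), those of Retn and Trarg1 −0.85 and −0.77 at 5d post-MI (adjusted p = 0.57 and 0.632), and those of Cfd −0.99 at 28d post-MI (adjusted p = 0.555) and −0.72 between the times (adjusted p = 0.696). In whole-kidney RNA, fewer adipocytes in the sample and less of these transcripts per adipocyte cannot be told apart, and the part of the lower adipocyte transcripts in the lower level of the 8 genes was not tested.

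Ucp1 was set against Adipoq, which encodes adiponectin and marks adipocytes of any kind. The ratio of their CPM had a median of 0.654 (range 0.108 to 2.47) in sham kidneys, 0.469 (0.0714 to 2.69) at 5d post-MI and 0.277 (0.0143 to 1.52) at 28d post-MI, so that the groups overlapped broadly. Of 6 relations tested within groups on log2 CPM, Ucp1 with Adipoq at 5d post-MI had Pearson's r = 0.899 (exact permutation test, two-sided, p = 0.00548, adjusted p = 0.0329, n = 8) and Spearman's rho = 0.81 (exact permutation p = 0.0218, adjusted p = 0.131). Without the 2 kidneys farthest from the median of Adipoq, replicates 3 and 6, r was 0.821 over the 6 kidneys left (exact permutation p = 0.0986), and the relation no longer passed the test. It also failed to pass without most single kidneys, with an adjusted p under 0.05 in 2 of 8 cases, and r was between 0.839 and 0.947 over these cases. Replicates 2, 3 and 6 were lower in Adipoq than the other 5 kidneys, which are too few for a relation of their own. In sham kidneys r was 0.704 (exact permutation p = 0.0635, adjusted p = 0.127, n = 8), with rho = 0.714 (exact permutation p = 0.0576) and r = 0.591 without replicates 5 and 8 (exact permutation p = 0.225). At 28d post-MI r was −0.599 (exact permutation p = 0.199, adjusted p = 0.298, n = 6), with rho = −0.543 (exact permutation p = 0.297) and r = −0.679 in the 4 kidneys left without replicates 6 and 7 (exact permutation p = 0.333). A difference of the relation between the groups was not tested.

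**Figure D3:**
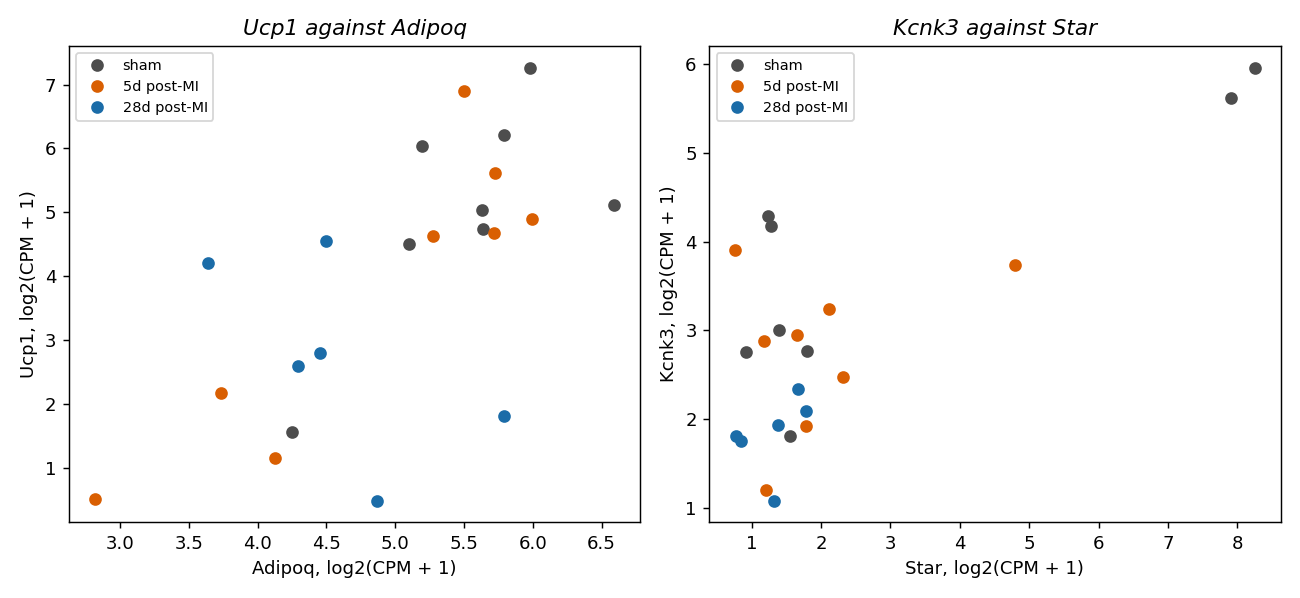
Left, Ucp1 against Adipoq, and right, Kcnk3 against Star, as log2(CPM + 1), with a point for each kidney coloured by group. Ucp1 was high where Adipoq was high at 5d post-MI, not so at 28d post-MI, and 2 sham kidneys stand apart at the upper right of the Kcnk3 plot.

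For Kcnk3 with Star, the sham kidneys fell into separate clusters, so that no pooled correlation is given. Within the 6 sham kidneys other than replicates 2 and 6, r was −0.339 (exact permutation p = 0.501) and rho −0.314 (exact permutation p = 0.564). At 5d post-MI r was 0.309 (exact permutation p = 0.45, adjusted p = 0.482, n = 8), with rho = 0.00 and r = 0.388 without replicates 1 and 5 (exact permutation p = 0.438). At 28d post-MI r was 0.383 (exact permutation p = 0.482, adjusted p = 0.482, n = 6), with rho = 0.714 (exact permutation p = 0.136) and r = 0.767 without replicates 2 and 6 (exact permutation p = 0.167).

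Transcripts of striated muscle, another known source of Cox8b and Cox7a1, were low in all groups. A low count of a listed gene need not mean that its cells were absent. Slc5a2, from the kidney epithelium list, had a mean of only 0.312 CPM in sham kidneys. The summed level of 15 muscle genes ran from 9.98 to 30.3 CPM in sham kidneys, from 12.6 to 26.9 CPM at 5d post-MI and from 15.0 to 29.8 CPM at 28d post-MI, and 5, 4 and 5 of the 15 genes were at 0 in every kidney of the group. Of the 3 muscle genes tested, 0 were called by edgeR in either contrast with sham and 0 had an unadjusted p-value under 0.05, and the lowest p-value at 28d post-MI was that of Myl2 (log2 fold change 0.63, adjusted p = 0.585 from edgeR). Tnni3 and Myh6 had 0.49 and 0.17.

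Other genes of the thermogenic programme were examined as a list of 41 transcription factors, signalling genes and fuel genes, 27 of which passed the count filter. The other 14 were too low to be tested, so the results below do not cover them. Of these, only Ckmt2 had a higher mean at 28d post-MI than in sham kidneys, 0.888 against 0.418 CPM. Lhx8 and Cpt1b had 0 counts in every kidney. The rest had lower means at 28d post-MI, among them Dio2 (1.77 CPM in sham kidneys and 0.768 CPM at 28d post-MI), Elovl3 (0.767 and 0.441 CPM) and Ffar4 (1.19 and 1.01 CPM). All of these levels are low and the differences were not tested. In edgeR 0 of 27 were called at 5d post-MI, at 28d post-MI or between the times. At an unadjusted p-value under 0.05, 4 were lower at 5d post-MI, 8 were lower and 1 higher at 28d post-MI, and 2 were lower between the times. Of all genes, 3.97%, 4.23% and 4.01% were lower at that p-value in these contrasts, and the share that were higher was not determined. DESeq2 called 1 of the 27 listed genes, Cebpa, at 28d post-MI and 0 in the other 2 contrasts. The median log2 fold changes were −0.06, −0.10 and −0.07. At 28d post-MI, 20 of the 27 genes had a log2 fold change below 0, against 50.4% of all tested genes.

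Of the transcription factors, Ppargc1a, the coactivator of mitochondrial biogenesis, and Prdm16, a determinant of brown fat identity, differed little. Ppargc1a was at 55.1 ± 5.5 CPM (SD over 8 kidneys), 55.1 ± 10 CPM (SD over 8 kidneys) and 54.3 ± 6.91 CPM (SD over 6 kidneys), and Prdm16 at 15.6 ± 3.52, 15.6 ± 3.51 and 14.8 ± 2.47 CPM. Both were named here after their values had been seen, and both are also expressed outside fat. Cebpa, a factor of adipocyte differentiation, had a log2 fold change of −0.63 at 28d post-MI (standard error 0.18, adjusted p = 0.276 from edgeR) and was called by DESeq2, and Pparg had −0.78 (standard error 0.33, adjusted p = 0.501). Lhx8, a marker of brown preadipocytes, had 0 counts in all 22 kidneys and Zic1 in all but 1 sham kidney. Ebf2, Irf4 and Tbx15, also below the filter, had mean levels of 1.26, 1.34 and 0.0824 CPM in sham kidneys. At 28d post-MI their means were 0.469, 0.485 and 0.0662 CPM, which was not tested. Of the others with the lowest p-values, all broadly expressed, Ppargc1b had a log2 fold change of −0.29 at 5d (adjusted p = 0.683 from edgeR) and of −0.06 at 28d (adjusted p = 0.963), Esrra one of 0.11 at 28d post-MI (adjusted p = 0.803) and Cebpb one of 0.27 between the times (adjusted p = 0.73).

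Among the signalling genes, Adrb3, the beta3-adrenergic receptor of adipocytes, was at 15.3 ± 8.08 CPM (SD over 8 kidneys) in sham kidneys, 7.37 ± 5.26 CPM (SD over 8 kidneys) at 5d post-MI and 6.1 ± 3.54 CPM (SD over 6 kidneys) at 28d post-MI, with log2 fold changes of −0.98 and −1.27 (adjusted p = 0.598 and 0.49 from edgeR). Prkar2b had 25.6 ± 9.66, 19.2 ± 11.5 and 9.9 ± 3.66 CPM. Of the fuel genes, Plin5, which tethers lipid droplets to mitochondria, had a log2 fold change of −0.65 at 28d post-MI (adjusted p = 0.391), Acsl5, which activates fatty acids, −0.25 (adjusted p = 0.377) and Gyk, which encodes glycerol kinase, 0.15 (adjusted p = 0.479). Acsl1 had −0.42 at 28d post-MI (adjusted p = 0.483) and −0.41 between the times (adjusted p = 0.456). Pdk4, an inhibitor of pyruvate oxidation, had −0.58 at 5d post-MI (adjusted p = 0.673) and −0.89 at 28d post-MI (adjusted p = 0.48) and Lpl, which encodes lipoprotein lipase, 0.28 at 5d post-MI (adjusted p = 0.741). Nrg4 had −0.43 at 28d post-MI (adjusted p = 0.687). Between the times, Nrg4, Eva1a, Pde3b, Acot11 and Cd36 lay between −0.26 and 0.26. None of these differences passed the test of edgeR.

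The paralogs of the 8 genes were also compared, and 9 of 17 passed the count filter. In edgeR 0 of 9 were called in any of the 3 contrasts. At an unadjusted p-value under 0.05, 1 was lower and 1 higher at 5d post-MI, 2 were lower at 28d post-MI and 1 was lower between the times. Of all genes, 3.97%, 4.23% and 4.01% were lower at that p-value, and the share that were higher was not determined. DESeq2 called 0 of the 9 paralogs in each contrast. Ucp2, an uncoupling protein of many tissues, was at 55.2 ± 11 CPM (SD over 8 kidneys) in sham kidneys, 62.6 ± 12.0 CPM (SD over 8 kidneys) at 5d post-MI and 47.5 ± 7.96 CPM (SD over 6 kidneys) at 28d post-MI. Ucp2 had a log2 fold change of −0.39 between 28d and 5d post-MI (standard error 0.14, adjusted p = 0.35 from edgeR). Cidec, a lipid droplet protein of white and brown adipocytes, had log2 fold changes of −0.27 and −0.69 relative to sham (adjusted p = 0.913 and 0.652). Slc36a4 had −0.53 and −0.48 (adjusted p = 0.503 and 0.554), Slc36a1 −0.13 and −0.05, Clstn1 0.05 and 0.12, and Clstn2 −0.10 and −0.05, the last reversing in sign without sham replicates 2 and 6. For Cox7a2l the values were 0.11 and −0.00. At 28d post-MI the tested paralogs had a median of −0.05 and all tested genes one of −0.0012. The −2.09 of the 8 genes cannot be weighed against these values, since the 8 genes were chosen for lower levels in the same groups. Of the paralogs below the filter, Ucp3 had mean levels of 1.36, 0.676 and 0.374 CPM in the 3 groups. Otop3 had 0.132, 0.0381 and 0.237 CPM, and neither was tested.

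**Figure D4:**
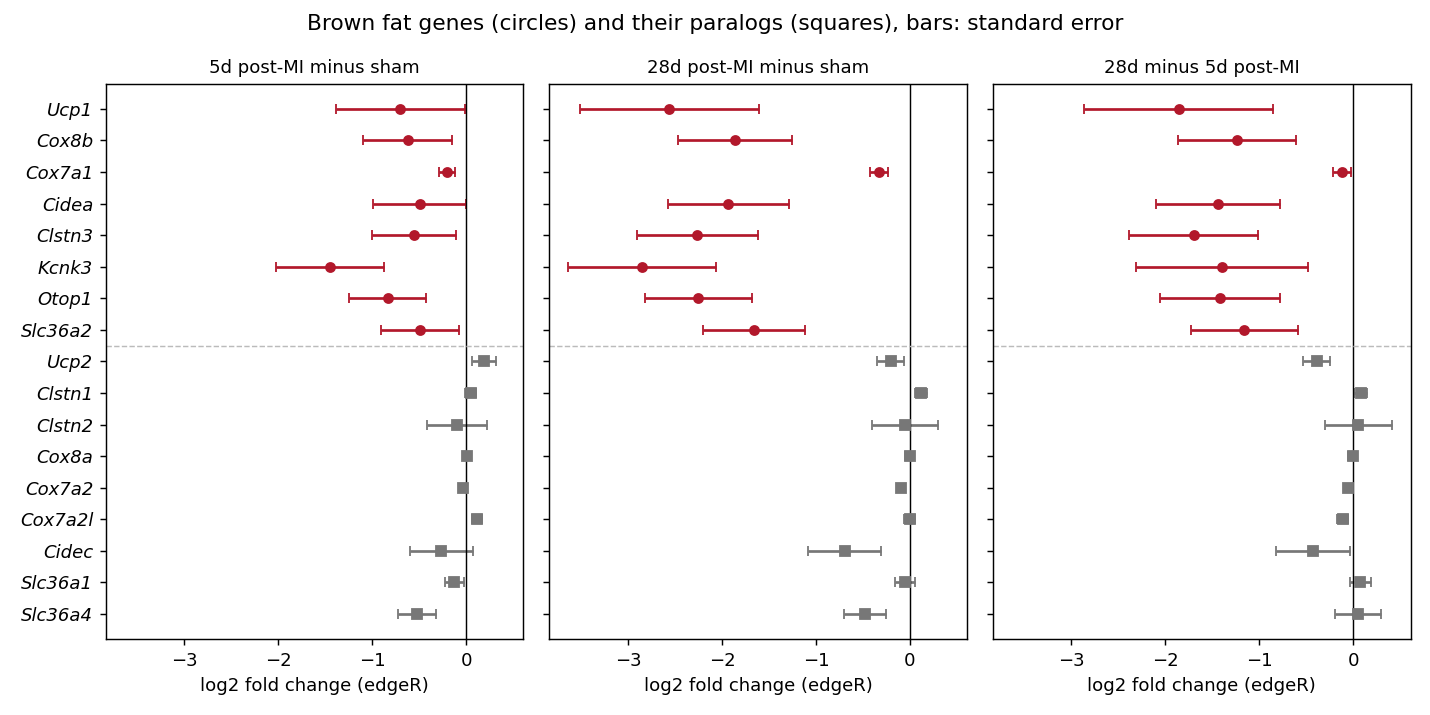
Log2 fold change with its standard error (bars) from edgeR for the 8 brown fat genes (red circles) and their 9 tested paralogs (grey squares) in 3 contrasts. The 8 genes, which were chosen for lower levels in these groups, lie left of 0 in each contrast, Cox7a1 closest to it. The paralogs lie between −0.69 and 0.19.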

How the data were processed

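The authors made MACE libraries from kidney RNA, used Cutadapt for trimming and HTSeq for counting after alignment to the mouse genome. The labels list Bowtie2 and the build mm39, the study's methods name mm10, and annotation and strand setting are not given in the sources used here. Gene positions are those of GENCODE M21 on GRCm38. The authors deposited whole-number counts per gene without normalization, and values named tpm that are CPM, deposited as counts scaled to each kidney's total within 5e-06. Of 48 value columns, 4 were not used, since they share a name between a kidney at 5d and one at 28d post-MI. Within groups, 71 pairs of kidneys differed by chi-squared per degree of freedom of 1.693 to 7.212.

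Counts were filtered by filterByExpr (minimum count 10), which kept 12780 of 30116 genes with a count, normalised by TMM and tested in edgeR 4.0.16 (R 4.3.3) by the robust quasi-likelihood F test, two-sided, over 22 kidneys, with Benjamini-Hochberg adjustment and a threshold of 0.05. DESeq2 1.42.0 was an alternative, and limma 3.58.1 was loaded by edgeR. Standard errors are the log2 fold change over the square root of F. On simulated counts of 28d post-MI against sham with 200 genes changed by a log2 of 1, edgeR called 167 and 10 unchanged genes among 12671 tested. The simulation gave every gene the same dispersion. It therefore checks the procedure only and does not show how often a change would be found in genes that vary as widely as Ucp1. Correlations used log2 CPM with a prior count of 2 and exact permutation in Python 3.11.15. Promoters were taken from RefSeq.

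The 8 genes and the lists were chosen with earlier results of these data known. Named were the 8 genes, the 3 genes with the lowest p-value of each list and contrast, all tested paralogs, and the 10 genes most like the 8 genes with the closest of each gene. Lists covered thermogenic genes, paralogs, cytochrome c oxidase subunits, adipocytes, adrenal gland, striated muscle and kidney epithelium. Alternatives were DESeq2, another normalisation, no count filter, fits of the compared groups only, a replicate block, each kidney left out, and another prior count or the deposited CPM for correlations. Some genes that the naming rule would give are not reported here.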

Additional observations from a re-analysis of the deposited data

Results flagged for a closer look

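Of 59 sets of values of a gene in a group that were examined for a kidney far from the others, 4 had one, while chance alone gives about 1 in 20. Ucp1 in the sham group was highest in replicate 1 with 153 CPM, and the next kidney had 72.9 CPM. Ucp1 at 5d post-MI was also highest in replicate 1 with 119 CPM, and the next kidney had 48.3 CPM. Both kidneys were also the highest of their groups for Clstn3 and Cidea, and in the Ucp1 to Adipoq ratio, with 2.47 and 2.69. The log2 fold change of Ucp1 at 5d post-MI, −0.70 with all kidneys, was −0.182 without sham replicate 1 and −1.41 without replicate 1 at 5d post-MI, so that its size there depended on these 2 kidneys. At 28d post-MI the omission of any single kidney left it between −3.06 and −2.04. For 28d against 5d it was −1.86 with all kidneys and −1.16 without replicate 1 at 5d post-MI. Star at 5d post-MI was at 26.7 CPM in replicate 5, and the next kidney had 3.96 CPM. Kcnk9 was at 0.588 CPM in the same kidney and had 0 counts in the other 7, where a count of 0 allows up to 3 counts. Kcnk3 was at 12.3 CPM in this kidney, below the 14 CPM of replicate 1.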

How the results depend on the processing

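The direction of all 24 values of the 8 genes (8 genes in 3 contrasts) stayed the same under DESeq2, another normalisation, no count filter and the replicate block, and in the 21 values that could be fitted without sham replicates 2 and 6 and the 21 with only the compared groups. Otop1 fell below the filter in all 3 contrasts without these kidneys, and with only the compared groups in both contrasts of the 28d group, as did Clstn3 between the times. With each kidney left out in turn, the median log2 fold change of the 8 genes was between −0.905 and −0.341 at 5d post-MI, between −2.37 and −1.84 at 28d post-MI and between −1.59 and −1.18 between the times, and the counts of called thermogenic genes and paralogs stayed at 0. DESeq2 called 1 thermogenic gene at 28d post-MI, Cebpa, and without a count filter edgeR called 1 paralog between the times, Ucp2. The cause was not tested. Over all genes, edgeR called 9, 3 and 53 genes, DESeq2 35, 42 and 96, the fit without a filter 80, 94 and 160, the fits of only the compared groups 2, 31 and 26, and the replicate block 2, 24 and 80. Without sham replicate 8, 29 genes were called at 28d post-MI, and without replicate 1 at 5d post-MI 38 genes at that time.

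Same-numbered kidneys did not deviate together (18 pairs, r between −0.127 and 0.0899), so that the replicate block pairs nothing. It changed no count of called genes of the lists, and turned the near-zero log2 fold changes of Cox8a to −0.00541, 0.00842 and 0.0138 and that of Slc36a1 at 28d post-MI to 0.00204. Without sham replicates 2 and 6, Clstn2 reversed to 0.172 and 0.219, Akr1b7, an adrenal gene, to 0.509 and 0.107 at 5d and 28d post-MI, and Myh6 to 0.145 at 5d post-MI. Small values that changed sign when a kidney was left out ranged, at 5d post-MI, from −0.291 to 0.092 for Clstn2, −0.011 to 0.0222 for Cox8a, −0.263 to 0.147 for Myh6 and −0.0603 to 0.276 for Myl2. At 28d post-MI they ranged from −0.239 to 0.143 for Clstn2, −0.0199 to 0.0258 for Cox8a, −0.0156 to 0.0262 for Cox7a2l and −0.0407 to 0.479 for Myh6, and between the times from −0.123 to 0.153 for Clstn2, −0.027 to 0.0219 for Cox8a, −0.117 to 0.16 for Slc36a4 and −0.00179 to 0.249 for Tnni3. Leaving out a kidney, r of Ucp1 with Adipoq was between 0.839 and 0.947 at 5d post-MI (adjusted p from exact permutation between 0.0321 and 0.101, under 0.05 in 2 of 8 cases), between 0.204 and 0.887 in sham kidneys (0.204 without replicate 8, 0.887 without replicate 5) and between −0.708 and −0.438 at 28d post-MI. That of Kcnk3 with Star was between −0.171 (without replicate 5) and 0.642 at 5d post-MI and between 0.175 and 0.855 at 28d post-MI. It is not given for the sham kidneys, which form clusters.

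Low counts limit Otop1 and Clstn3 at 28d post-MI, the sham group was taken at 5d only, and sham kidneys differed widely in fat and adrenal transcripts.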

Other observations

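Of 13 other genes for nuclear-encoded subunits of cytochrome c oxidase, 11 were tested, and edgeR called 0 in each contrast, while 0 at 5d post-MI, 4 at 28d post-MI and 2 between the times were lower at an unadjusted p-value under 0.05, against 3.97%, 4.23% and 4.01% of all genes. A log2 fold change below 0 was found for 6, 9 and 10 of the 11. Their median log2 fold changes were −0.01, −0.09 and −0.05. Cox6b2, an isoform known from testis, had the lowest p-value at 28d post-MI and between the times, with 18.3 ± 2.9 CPM (SD over 8 kidneys) in sham kidneys, 18.6 ± 4.68 CPM (SD over 8 kidneys) at 5d post-MI and 13.7 ± 2.22 CPM (SD over 6 kidneys) at 28d post-MI (log2 fold change −0.41, standard error 0.14, adjusted p = 0.369 from edgeR relative to sham, and −0.46, adjusted p = 0.202, between the times). Cox5b and Cox7c had −0.11 and −0.12 at 28d post-MI (adjusted p = 0.543 and 0.542), and Cox4i1 and Cox5a 0.05 and 0.19 at 5d post-MI (adjusted p = 0.799 and 0.865).

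Of the kidney epithelium genes, 9 of 10 were tested and 0 were called by edgeR in each contrast. At an unadjusted p-value under 0.05, 2 were higher and 1 lower at 5d post-MI, 3 were higher at 28d post-MI and 3 were higher between the times. Of all genes, 3.97% were lower at that p-value at 5d post-MI. The share of all genes that were higher was not determined, so nothing is read from the counts of higher genes. Lrp2, which encodes megalin of the proximal tubule, had a log2 fold change of 0.14 at 28d post-MI (adjusted p = 0.444 from edgeR), Kap 0.28 (adjusted p = 0.479), and Umod and Slc34a1 0.21 and −0.15 at 5d post-MI (adjusted p = 0.547 and 0.598). The adrenal list had 1 of 13 genes past the filter, Akr1b7, with log2 fold changes of −1.78 and −2.18 relative to sham (adjusted p = 0.581 and 0.504 from edgeR). It was at 71.8 and 100 CPM in sham replicates 2 and 6, and at 4.92 ± 1.2 CPM (SD over 6 kidneys) in the other sham kidneys. Its means were 6.86 CPM at 5d and 5.26 CPM at 28d post-MI. Without these 2 sham kidneys its log2 fold changes were 0.509 and 0.107.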
